A study of Mus musculus with 28 samples.

Results

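Transcripts of 5 genes of the red cell lineage were followed in RNA-seq of mouse muscle: the alpha globin genes Hba-a1 and Hba-a2, the adult beta globin genes Hbb-bs and Hbb-bt, and Alas2. The 5 genes were chosen by symbol, by a rule that uses no measured level but with earlier results of these data known, and matched by Ensembl identifier in the tables of both cohorts, where they are 5 of 55359 genes in cohort F and 5 of 55416 in cohort G. All 5 passed the filter on low counts in each cohort, among 14841 genes tested in cohort F and 15439 in cohort G. They bear on how much blood RNA the muscles held, and on whether this differed under tamoxifen.

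The muscle was the tibialis anterior (TA) of C57BL/6N mice aged 8 weeks, with 7 groups of 4 mice and 28 mice in all. Cohort F held Bin1 mck-/- mice, in which Bin1 is deleted by a Cre recombinase that the muscle creatine kinase promoter drives in striated muscle. Its groups were WT on placebo, disease (Bin1 mck-/- on placebo) and disease treated (Bin1 mck-/- on a diet with tamoxifen). Cohort G held Dnm2 S619L/+ mice, heterozygous for a point mutation of Dnm2, with the groups WT on placebo, WT treated (tamoxifen), disease (Dnm2 S619L/+ on placebo) and disease treated (Dnm2 S619L/+ on tamoxifen). Tamoxifen binds the estrogen receptor. Cohort F has no WT treated group, and its library protocol differed from that of cohort G in RNA input (350 against 300 ng) and fragmentation time (8 against 2 min), so model and protocol cannot be told apart. Sex is not among the labels. Xist, which female cells transcribe, was above 10 CPM in all 12 mice of cohort F, in 4 of 4 disease treated mice of cohort G, and in 2 of 4 mice of each other group of cohort G.

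Libraries held 24671835 to 35136327 reads on genes in cohort F and 15586333 to 109710886 reads in cohort G. Bin1 was at 521 to 555 CPM (read counts divided by the TMM-scaled library size and multiplied by 1e6) in WT mice of cohort F, with disease mice at 51.6 to 62.0 CPM and disease treated mice at 36.0 to 49.5 CPM, in the direction of the labels. Dnm2 carries a point mutation whose presence its read count does not show. The muscle genes Ckm, Acta1, Myh4, Myh1, Tnnt3, Pvalb, Myl1 and Atp2a1 were high in every mouse, with Myl1 at 2257 CPM or more and Myh4, the fastest myosin heavy chain, between 8341 and 43231 CPM. Reads of mitochondrial genes made up 19.6% to 25.7% of gene reads in WT mice of cohort G, against 13.6% to 19.0% in its other groups and 7.86% to 11.6% in cohort F.

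Hemoglobin carries oxygen in red cells as a tetramer of alpha and beta chains, each of which holds a heme. ALAS2 is the erythroid enzyme of the first step of heme synthesis, while ALAS1 serves that step in other tissues. Mammalian red cells lose their nucleus, but young red cells, the reticulocytes, still carry globin mRNA, and blood left in a dissected tissue brings this mRNA into its libraries.

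The stretches of 250 bases that lie before the start of 4 of the genes are printed because the 5 genes moved together from mouse to mouse. They come from RefSeq on GRCm38.p6, which is not the build named in the submitters' processing notes (mm39), and all 5 symbols matched. Capitals mark GATAA (the core letters of GATA factor motifs), CACCC (letters of Krüppel-like factor motifs), CCAAT and TATAA, searched on both strands.
Hba-a1: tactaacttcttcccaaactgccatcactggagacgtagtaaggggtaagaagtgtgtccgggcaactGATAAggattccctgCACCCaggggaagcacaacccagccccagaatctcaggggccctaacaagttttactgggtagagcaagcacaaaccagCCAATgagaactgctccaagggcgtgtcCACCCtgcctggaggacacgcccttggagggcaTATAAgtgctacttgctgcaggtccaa
Hbb-bs: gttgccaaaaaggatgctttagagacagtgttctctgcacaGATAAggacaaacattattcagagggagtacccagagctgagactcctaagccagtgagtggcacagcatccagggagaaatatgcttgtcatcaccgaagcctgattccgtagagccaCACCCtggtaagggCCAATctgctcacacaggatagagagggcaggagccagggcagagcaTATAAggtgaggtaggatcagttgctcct
Hbb-bt: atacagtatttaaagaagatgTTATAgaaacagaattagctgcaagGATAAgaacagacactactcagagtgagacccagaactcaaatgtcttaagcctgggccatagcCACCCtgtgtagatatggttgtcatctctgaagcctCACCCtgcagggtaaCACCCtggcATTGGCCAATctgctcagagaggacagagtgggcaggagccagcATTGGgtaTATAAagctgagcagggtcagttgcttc
Alas2: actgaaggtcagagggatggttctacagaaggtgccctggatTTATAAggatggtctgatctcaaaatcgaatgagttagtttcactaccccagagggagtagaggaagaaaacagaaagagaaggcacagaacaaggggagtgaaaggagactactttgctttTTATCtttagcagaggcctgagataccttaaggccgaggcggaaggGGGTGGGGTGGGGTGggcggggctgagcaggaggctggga

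The Hba-a1 stretch is chr11:32283422-32283671 on the plus strand and the Hbb-bs stretch is chr7:103827929-103828178 on the minus strand. Hbb-bt lies nearby, with its stretch at chr7:103813924-103814173 on the minus strand, and that of Alas2 is chrX:150547167-150547416 on the plus strand. The Hba-a2 stretch, chr11:32296242-32296491, was identical to that of Hba-a1 in 247 of 247 bases compared and is not printed. Hbb-bs and Hbb-bt shared 127 of 249 bases (51%) without gaps. GATAA and CACCC were present before all 5 genes, against 22.58% and 52.01% of 32851 RefSeq promoters of the same length and 10.05% that hold both. CCAAT (33.85% of promoters) and TATAA (22.78%) were present before all 4 globin genes, and 0.968% of promoters held all 4 motifs. No CCAAT lay in the Alas2 stretch, whose CACCC matches abut each other in a G-rich run on the other strand, and its TATAA matches lay at the far end from the start. In Hbb-bt 2 of the 3 matches of CCAAT, on opposite strands, abut each other. A match of these letters is a description and not a bound site.

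Red cell mRNA was found in every muscle and varied widely. The globin genes together took between 0.0151% and 0.266% of the reads on genes, and their summed level ranged from 165 to 2625 CPM over the 28 mice, a 15.9-fold range. Alas2 ranged 25.3-fold, from 5.24 to 132 CPM. As all of these values are for whole muscle, fewer red cells and less RNA per red cell cannot be told apart.

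**Figure D1:**
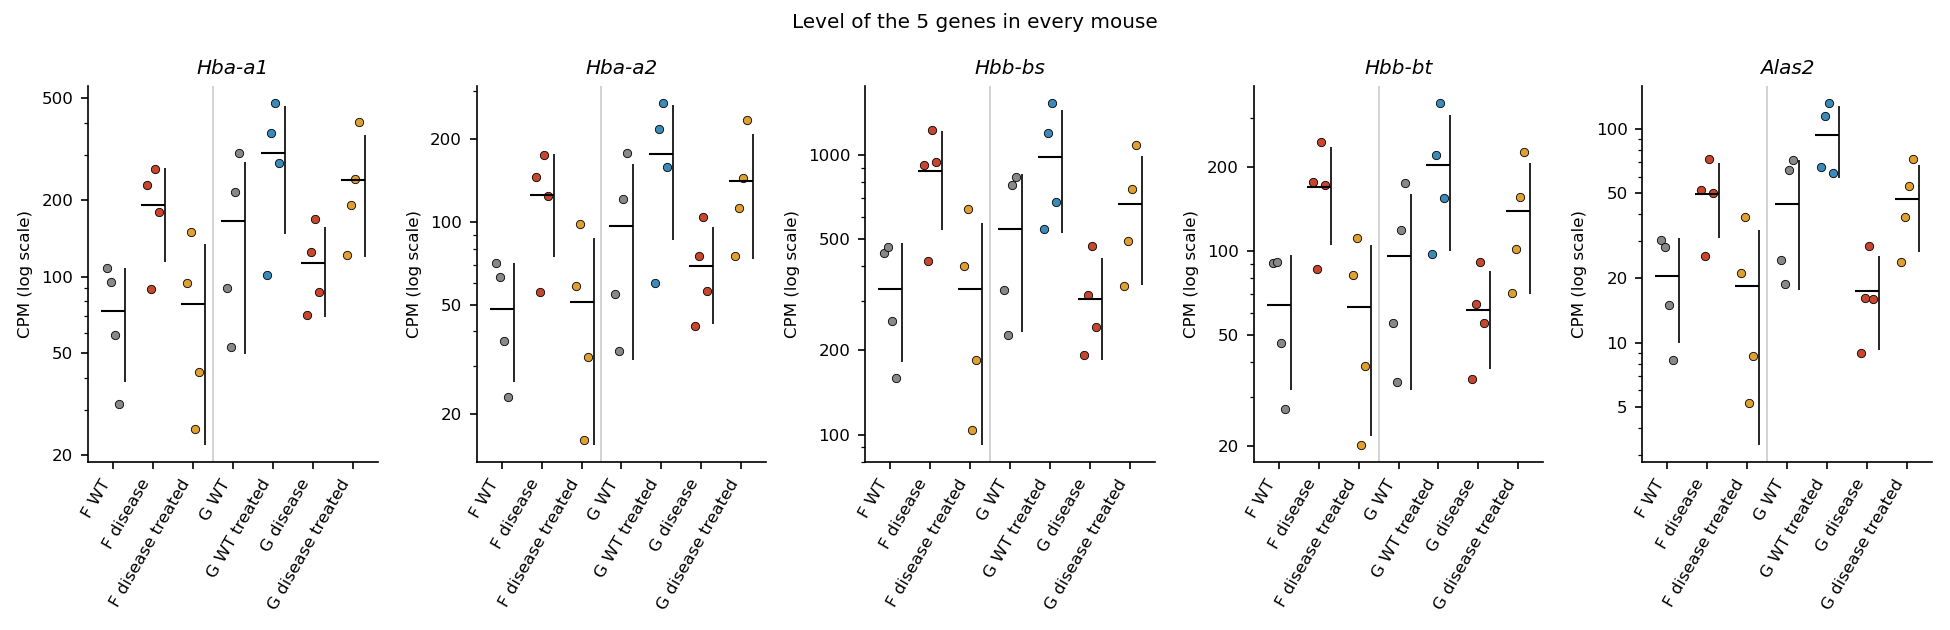
CPM of Hba-a1, Hba-a2, Hbb-bs, Hbb-bt and Alas2 (log axis) in each mouse of the 7 groups, with points for mice, horizontal bars for group means and vertical lines for 1 SD on either side (n = 4). The groups of each comparison overlap in all 5 genes, with the highest single values in WT treated mice of cohort G (Hbb-bs up to 1535 CPM, Alas2 up to 132 CPM).

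Per kilobase of exon, the only scale on which levels of different genes are compared here, Hbb-bs was the most abundant of the 5. In WT mice of cohort G it stood at 709 ± 406 CPM per kb (mean ± SD, n = 4), followed by Hba-a1 at 204 ± 143, Hba-a2 at 146 ± 98.4, Hbb-bt at 137 ± 91.3 and Alas2 at 18.7 ± 11.3. The means of Hba-a1, Hba-a2 and Hbb-bt lay within 1 SD between mice of each other. That spread is not the spread of a difference within a mouse. Hba-a1, with 812 exon bases against 667 in Hba-a2, had 1.55 to 1.76 reads per read of Hba-a2 in these 4 mice. How reads are split between the paralogs is uncertain, since 67.54% of the 50-base windows of the Hba-a1 transcript also occur in Hba-a2, and 86.93% of those of Hba-a2 in Hba-a1. For Hbb-bs the share found in Hbb-bt was 65.8% and for Hbb-bt the share found in Hbb-bs was 58.26%, whereas no window of Alas2 occurred in another gene.

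The 5 genes kept close company across mice. With each cohort centred on its mean, Pearson's r of log2 CPM over the 28 mice was 0.970 to 0.998 between globin genes and 0.914 to 0.976 between Alas2 and a globin gene. With each group centred on its own mean the ranges were 0.969 to 0.997 and 0.938 to 0.983. These correlations describe mice that share group and library protocol, and part of the values between paralogs reflects shared sequence.

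Summed globin levels, in the order of group means, were 1675 ± 803 CPM in WT treated mice of cohort G, 1364 ± 525 in disease mice of cohort F, 1189 ± 580 in disease treated and 904 ± 552 in WT mice of cohort G. Below these were 550 ± 215 in disease mice of cohort G, 525 ± 374 in disease treated and 519 ± 239 CPM in WT mice of cohort F (mean ± SD, n = 4). No 2 neighbours in this order differed by more than the larger of their SDs, and levels set across cohorts were normalized separately.

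In none of the comparisons of 2 groups were the groups of any of the 5 genes without overlap. Of all genes tested, 31.4% were without overlap between WT treated and WT mice of cohort G, 24.9% between disease and WT, 10.4% between disease treated and disease, and 26.1% between disease treated and WT mice. In cohort F the shares were 16.5% for disease against WT, 9.8% for disease treated against disease and 7.96% for disease treated against WT mice.

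The comparison of WT treated with WT mice asks what tamoxifen does to these transcripts in healthy muscle. Their fitted levels were 1.82- to 2.12-fold higher under tamoxifen, but no gene passed the test and the groups overlapped in all 5. Summed globin stood at 530, 347, 1240 and 1497 CPM in WT mice 1 to 4 and at 802, 2003, 2625 and 1272 CPM in WT treated mice 1 to 4. The highest WT mouse lay above 2 of the 4 treated mice, and the 2 lowest values were both WT.

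Hbb-bs, a beta chain, was at 330, 227, 785 and 838 CPM in WT mice and 542, 1199, 1535 and 678 CPM in WT treated mice. The log2 fold change of 0.86 (SE 0.46) had an adjusted p of 0.180 in edgeR's quasi-likelihood test with Benjamini-Hochberg adjustment over all genes. Alas2 was at 24.4, 18.8, 64.4 and 71.8 CPM in WT mice and at 66.8, 115, 132 and 62.1 CPM in WT treated mice. WT mice 1 and 2 were below every treated mouse, WT mice 3 and 4 were within the treated range, and the log2 fold change of 1.07 (SE 0.46) had an adjusted p of 0.0948.

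Over the 5 genes the log2 fold changes lay between 0.86 and 1.08 against a median of -0.037 over all genes tested, and edgeR called 0 of 5 where it called 27.7% of all genes. At an unadjusted p under 0.05 there were 2 of 5, Hbb-bt and Alas2, and DESeq2 called 0. Hbb-bt, the other adult beta chain, was at 55.3, 34.0, 119 and 175 CPM in WT mice against 97.7, 221, 339 and 155 CPM in WT treated mice (log2 fold change 1.08, SE 0.50, adjusted p 0.120). The alpha globin gene Hba-a1 was at 90.6, 52.8, 214 and 306 CPM in WT mice and at 102, 364, 479 and 280 CPM in WT treated mice (log2 fold change 0.89, SE 0.54, adjusted p 0.233). In Hba-a1, too, WT mice 1 and 2 lay below all treated mice and WT mice 3 and 4 lay among them. The outcome rested on WT mouse 4, the highest of its group: without it Hbb-bt (1.55, adjusted p 0.0389) and Alas2 (1.41, adjusted p 0.0472) were called.

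In Dnm2 S619L/+ mice, tamoxifen went with a difference of the same sign and much the same size. Xist was above 10 CPM in 4 of 4 disease treated mice but in 2 of 4 disease mice. Tamoxifen and Xist status thus differed together between these groups. The same imbalance holds for every comparison with disease treated mice of cohort G. Summed globin was at 341, 582, 835 and 442 CPM in disease mice 1 to 4 and at 609, 898, 1298 and 1949 CPM in disease treated mice 1 to 4. Treated mice 2 to 4 lay above every disease mouse and treated mouse 1 lay inside their range. For Hbb-bs the disease mice gave 193, 317, 472 and 243 CPM and the treated mice 341, 494, 755 and 1085 CPM. For Hba-a1 they gave 70.6, 125, 168 and 87.3 CPM in disease and 122, 190, 242 and 403 CPM in disease treated mice, with treated mouse 1 again the one inside the range of disease mice.

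Alas2 was at 8.92, 16.2, 28.5 and 16.1 CPM in disease mice and at 24.0, 38.7, 54.3 and 72.5 CPM in disease treated mice, which overlapped only between disease mouse 3 and treated mouse 1. Its log2 fold change of 1.45 (SE 0.47, 95% CI 0.45 to 2.45) had an adjusted p of 0.0699 with edgeR. For the globin genes the log2 fold changes were 1.08 in Hba-a1, 1.03 in Hba-a2, 1.13 in Hbb-bs and 1.18 in Hbb-bt, with adjusted p of 0.145 to 0.230, against a median of -0.031 over all genes. The edgeR test called 0 of 5 where it called 8.26% of all genes, although 3 of 5 had an unadjusted p under 0.05. DESeq2 called Alas2 alone (1.46, adjusted p 0.0150), and without disease mouse 3 edgeR called it too (1.79, adjusted p 0.0497). With Xist as a covariate, chosen after the data were seen, edgeR called 0 of 5 in this comparison and 515 of all genes, against 1276 without the covariate.

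The difference between both tamoxifen effects in cohort G, tested as the interaction of genotype and tamoxifen, was 0.09 to 0.38 on the log2 scale with adjusted p of 0.866 to 0.972. No gene of the 5 passed (0.259% of all genes did), none had an unadjusted p under 0.05, and DESeq2 called 0. The 95% CIs ran from -1.41 to 1.80, wide enough to hold a log2 difference of 1 in either direction.

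**Figure D2:**
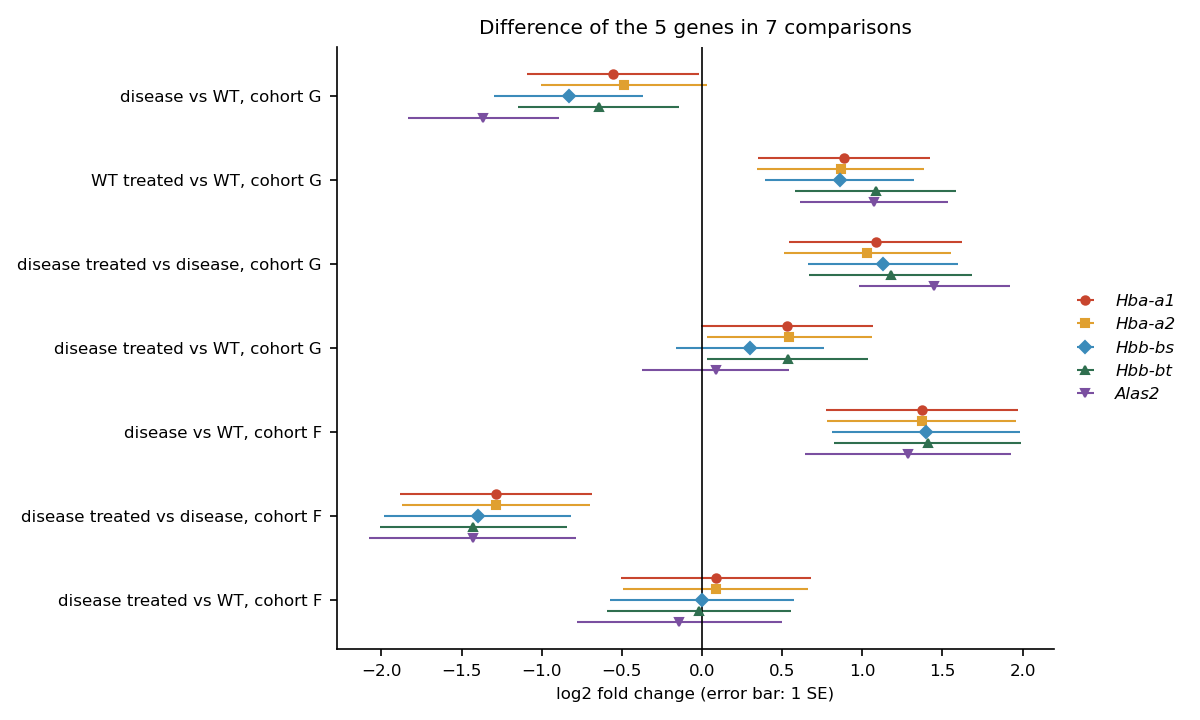
Log2 fold change of the 5 genes (markers) in 7 comparisons, with bars for 1 SE from edgeR. Against untreated mice of the same genotype, all 5 lie above 0 under tamoxifen in cohort G (0.86 to 1.45) and below 0 in cohort F (-1.43 to -1.28), and Alas2 in disease against WT mice of cohort G is the value furthest below 0 in that cohort (-1.36).

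Disease against WT mice of cohort G asks whether the Dnm2 mutation goes with another level of red cell mRNA, and it shares its WT mice with the comparison of WT treated mice and its disease mice with that of disease treated mice. Alas2 fell in disease mice, 2.57-fold, while the fold changes of the globin genes were between 1.40- and 1.78-fold lower and did not pass. As given above, Alas2 was at 18.8 to 71.8 CPM in WT and at 8.92 to 28.5 CPM in disease mice, so that disease mouse 3 lay above WT mice 1 and 2. The log2 fold change of Alas2 was -1.36 (SE 0.47) with an adjusted p of 0.0497 in edgeR, just inside the threshold, in a comparison in which 21.9% of all genes were called and 9.81% were called lower.

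Hbb-bs came next, at -0.83 (SE 0.46, adjusted p 0.212), followed by Hbb-bt at -0.64 (0.374), Hba-a1 at -0.55 (0.481) and Hba-a2 at -0.49 (0.528), with a median of 0.024 over all genes. The call of Alas2 was not firm: it was lost on leaving out any 1 of 11 of the 16 mice of the cohort and kept in the other 5 cases, with adjusted p between 0.0289 and 0.144. The 11 were WT mice 3 (0.144) and 4 (0.134), disease mice 1 (0.114), 2 (0.102) and 4 (0.116), WT treated mice 1 (0.0547), 2 (0.0618), 3 (0.0550) and 4 (0.0607), and disease treated mice 2 (0.0637) and 3 (0.0612). With Xist as a covariate, chosen after the data were seen, it stood at -1.40 with an adjusted p of 0.0547. DESeq2 called Alas2 (adjusted p 0.0128) and none of the globin genes. The share of mitochondrial reads was highest in WT mice. With library sizes taken without mitochondrial and bone genes Alas2 stood at -1.36 with an adjusted p of 0.0498 in edgeR. TMM scaling, run afterwards on counts that still held those genes, largely undoes such a change. This setting therefore cannot show whether the mitochondrial share matters for Alas2.

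Between disease treated and WT mice of cohort G no gene of the 5 passed by edgeR (0 of 5 against 28.9% of all genes, none at an unadjusted p under 0.05, DESeq2 0). The log2 fold changes ran from 0.09 in Alas2 to 0.55 in Hba-a2, with 95% CIs between -0.89 and 1.67. Alas2 was at 47.4 ± 20.8 CPM in disease treated and 44.8 ± 27.1 CPM in WT mice (mean ± SD, n = 4).

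In cohort F the differences had the opposite signs, and the contrast of the disease effects between the cohorts was not tested. Disease mice, which lack Bin1 in muscle, had the highest summed globin of the cohort, at 1475, 649, 1912 and 1421 CPM in mice 1 to 4, against 717, 720, 398 and 241 CPM in WT mice 5 to 8. Disease mice 1, 3 and 4 lay above every WT mouse, and disease mouse 2 lay inside the WT range. Hbb-bs was at 924, 418, 1227 and 946 CPM in disease mice and 447, 470, 255 and 159 CPM in WT mice. Hba-a1 was at 228, 89.6, 265 and 179 CPM in disease and at 108, 95.4, 58.9 and 31.6 CPM in WT mice, with the same disease mouse among the WT mice.

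The log2 fold changes of the 5 genes lay between 1.29 (Alas2) and 1.41 (Hbb-bt), with SE of 0.58 to 0.64 and adjusted p of 0.214 to 0.299 by edgeR. None of 5 passed where 2.61% of all genes were called, 4 of 5 had an unadjusted p under 0.05, and DESeq2 called 0. Alas2 was at 51.9, 25.4, 72.2 and 50.4 CPM in disease mice and 30.2, 28.2, 15.03 and 8.34 CPM in WT mice. Again disease mouse 2 was the mouse that overlapped with WT.

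Tamoxifen in Bin1 mck-/- mice, compared with the same disease mice, went with lower means, 2.44- to 2.70-fold below those of disease mice, again without a call. Summed globin in disease treated mice 1 to 4 was 638, 1001, 165 and 298 CPM, Hbb-bs was 402, 641, 104 and 184 CPM, and Hba-a1 was 94.5, 149.7, 25.3 and 42.4 CPM. In summed globin, treated mice 1, 3 and 4 lay below every disease mouse, though mouse 1 only just, treated mouse 2 lay above disease mouse 2, and the range of treated mice held that of WT mice. Alas2 was at 21.3, 38.6, 5.24 and 8.66 CPM in disease treated mice, with treated mouse 2 again above disease mouse 2.

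Against disease mice the log2 fold changes were -1.29 in Hba-a1, -1.28 in Hba-a2, -1.40 in Hbb-bs, -1.43 in Hbb-bt and -1.43 in Alas2, with adjusted p of 0.206 to 0.257 by edgeR. It called 0 of 5 where it called 3.13% of all genes, 2 of 5 had an unadjusted p under 0.05, and DESeq2 called 0. Against WT mice of cohort F, disease treated mice gave -0.14 to 0.09 (95% CIs between -1.58 and 1.41), with 0 of 5 called by edgeR or DESeq2, 0.849% of all genes called by edgeR, and none of the 5 at an unadjusted p under 0.05.

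The tamoxifen effects in disease mice of the 2 cohorts therefore had opposite signs, and their difference was tested in 1 edgeR fit of all 28 mice, a test added after the signs were seen. The difference, cohort G minus cohort F, was 2.92 on the log2 scale in Alas2 (SE 0.81, 95% CI 1.24 to 4.61, adjusted p 0.0564), 2.57 in Hbb-bs (adjusted p 0.0625) and 2.65 in Hbb-bt (0.0644). For Hba-a1 it was 2.42 (0.0929) and for Hba-a2 2.36 (0.0918). No gene of the 5 passed by edgeR, where 1.71% of all genes did, although all 5 had an unadjusted p under 0.05. DESeq2 called all 5, with adjusted p of 0.00962 to 0.0321.

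A single mouse moved this result. Without disease treated mouse 2 of cohort F, the highest of its group, all 5 genes were called, with adjusted p of 0.00811 to 0.0285, and without disease treated mouse 4 of cohort G, the highest of its group, Alas2 alone was (2.65, adjusted p 0.0456). The mouse model, the library protocol and the animals with and without Xist all differ between the cohorts, and their parts in the difference cannot be told apart.

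Ratios between the 5 genes within a mouse do not depend on its library size, and they varied less than the levels. Hba-a1 per Hba-a2 lay between 1.32 and 1.77 reads over the 28 mice, and Hbb-bs per Hbb-bt between 4.37 and 6.67. Beta per alpha globin reads ranged from 1.90 to 3.95, at 2.94 to 3.69 in cohort F and 1.90 to 3.95 in cohort G. In cohort G it was 2.09 to 2.997 in WT mice, with disease mice at 1.90 to 2.08 and disease treated mice at 1.97 to 2.35, and the value of 3.95 belonged to WT treated mouse 1.

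Alas2 per 1000 globin reads separated 3 groups of cohort G whose levels overlapped. It was 45.9, 54.1, 52.0 and 48.0 in WT mice, 26.2, 27.8, 34.1 and 36.4 in disease mice, and 39.3, 43.1, 41.9 and 37.2 in disease treated mice 1 to 4. All disease mice lay below all WT mice, and disease treated mice lay between both without overlap. WT treated mice, at 83.3, 57.3, 50.5 and 48.8, overlapped with WT.

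The ratio was looked at after the levels were known and is given with no test. Of all tested genes set against globin reads in the same way, 0.149% were without overlap and lower in disease than in WT mice, 0.214% without overlap and higher in disease treated than in disease mice, and 0.849% without overlap and lower in disease treated than in WT mice. In the other direction the shares were 2.95%, 6.34% and 0.875%. All of these shares depend on the globin reads that each gene is set against, so they do not say how rare the separation of Alas2 is. In cohort F the ratio was 35.2 to 39.2 in disease, 29.1 to 38.6 in disease treated and 34.6 to 42.2 in WT mice, with overlap between all 3 groups.

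**Figure D3:**
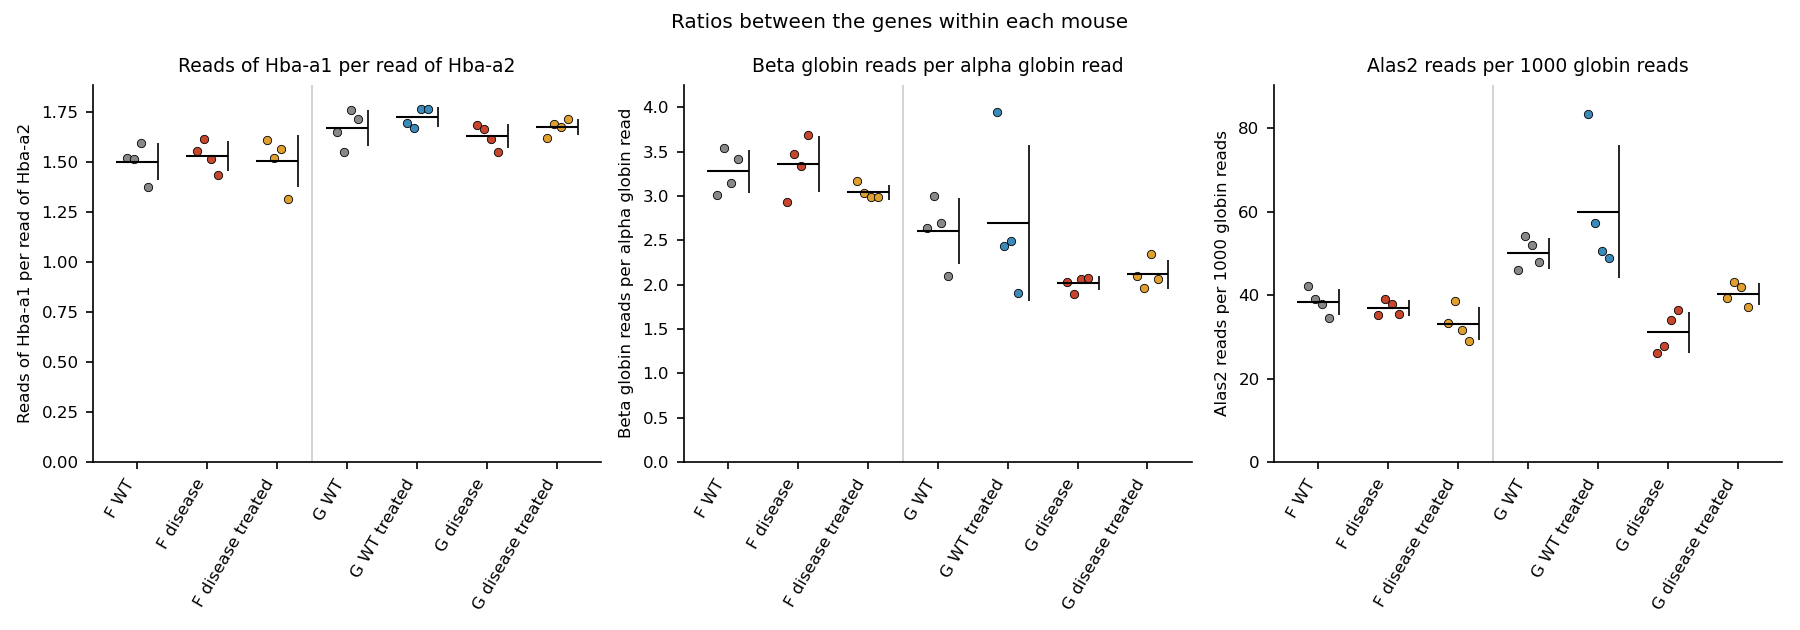
Reads of Hba-a1 per read of Hba-a2, beta per alpha globin reads, and Alas2 reads per 1000 globin reads in each mouse of the 7 groups (points), with group means (horizontal bars) and 1 SD on either side (vertical lines, n = 4). In the right panel the 4 disease mice of cohort G (26.2 to 36.4) lie below the 4 WT mice (45.9 to 54.1).

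Other genes of red cells did not all follow the 5. Of 14 genes of the red cell membrane, 8 were tested in cohort G and 6 in cohort F. Slc4a1, the anion exchanger band 3, was at 0.426, 0.141, 0.790 and 2.39 CPM in WT mice of cohort G and at 1.71, 6.89, 7.06 and 3.10 CPM in WT treated mice, with WT mouse 4 alone inside the treated range. It rose in WT treated mice (log2 fold change 2.24, SE 0.68, adjusted p 0.0214 by edgeR).

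Of the 8 tested, 4 rose and 2 fell in WT treated against WT mice, where 27.7% of all genes were called, with a median log2 fold change of 1.21. Among those that rose were Slc4a1 and Add2 (beta adducin). Add2 was at 0.712 ± 0.29 against 0.0436 ± 0.043 CPM (mean ± SD, n = 4, log2 fold change 2.75, adjusted p 0.00133). Add2 also rose in disease mice of cohort G (2.19, adjusted p 0.00672), where the globin genes did not, and in disease treated against WT mice (2.72, adjusted p 0.00145).

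The genes that fell were Icam4, an adhesion protein of red cells, at 0.148 ± 0.095 against 0.538 ± 0.21 CPM (-1.49, adjusted p 0.00723), and Gypc (glycophorin C), at 17.8 ± 1.9 against 24.2 ± 3.2 CPM (-0.44, adjusted p 0.0465). Icam4 fell in disease treated against disease mice too (-1.20, adjusted p 0.0482), as the only one of 8. In that comparison 8.26% of all genes were called and 3.04% were called lower. Icam4 was at 1.21 CPM or less in all 28 mice. Gypc and Sptb (beta spectrin), at 12.5 CPM or more and 178 CPM or more in every mouse, did not follow the globin genes over the mice (r -0.19 and -0.30). In cohort F the 6 tested genes ranged from -0.99 to 0.12 in disease treated against disease mice without a call, and Gypc fell in disease treated against WT mice (-0.73, adjusted p 0.0244).

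Erythroid regulators act in nucleated precursors, and most of them were nearly absent. Klf1 was at 0.225 CPM or less in all 28 mice, Gata1 at 0.329 or less, Gfi1b at 0.562 or less, Hemgn at 0.237 or less and Trim58 at 0.0617 or less. Of 12 listed genes, 5 were tested, of which 2 rose in WT treated mice, where 15.8% of all genes were called higher. The others were Tal1 (log2 fold change -0.084), Epor (0.55) and Bcl2l1 (-0.30), without a call. Those that rose were Trim10, a late erythroid ubiquitin ligase gene (1.64 ± 0.86 against 0.333 ± 0.28 CPM, log2 fold change 2.19, adjusted p 0.0158), and Tent5c, a poly(A) polymerase (17.7 ± 5.8 against 6.01 ± 3.6 CPM, 1.57, adjusted p 0.0177).

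Neither passed in disease treated against disease mice, at 1.47 (adjusted p 0.165) for Trim10 and 1.14 (0.129) for Tent5c in cohort G, and at -1.27 (0.232) and -0.66 (0.370) in cohort F. Slc4a1 gave 1.61 (adjusted p 0.153) in cohort G and -0.99 (0.407) in cohort F. These 3 genes, picked for their call in WT treated mice, had the sign of the globin genes in both cohorts, without a call, but others of their lists did not. In cohort G the tested red cell membrane genes reached down to -1.20 and the regulators to -0.28, and in cohort F they reached up to 0.12 and 0.11. Of the other globin genes, Hbb-y, Hbb-bh0 and Hbb-bh2 had no read in any of the 28 mice, the embryonic Hba-x and Hbb-bh1 reached 0.0471 and 0.0799 CPM, and Mb, the oxygen-binding protein of muscle itself, was at 3243 to 7538 CPM and passed in no comparison.

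**Figure D4:**
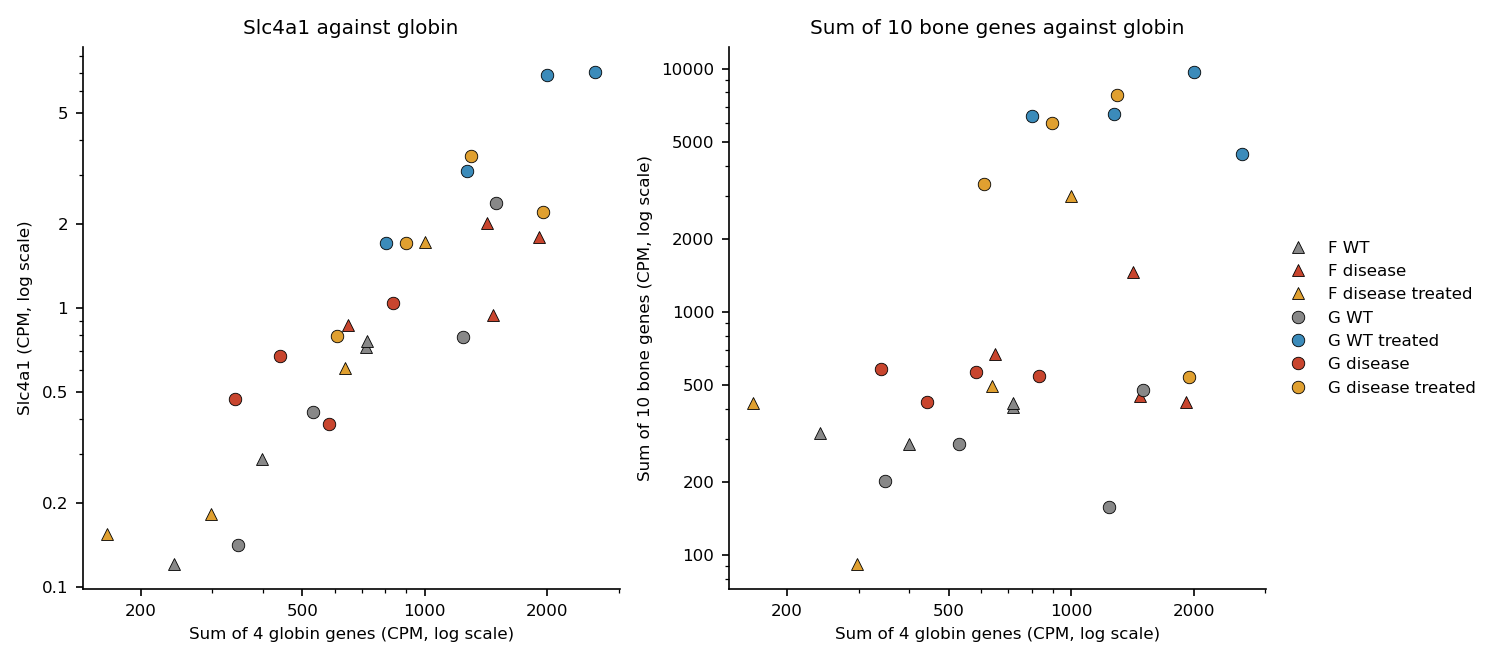
Slc4a1 (left) and the sum of 10 bone genes (right) against the sum of 4 globin genes, all in CPM on log axes, with 1 point per mouse (28 mice, circles for cohort G and triangles for cohort F). Slc4a1 follows globin in both cohorts, whereas bone genes reach 4466 CPM or more in WT treated mice, and the disease treated mouse with 1949 CPM of globin has 541 CPM of bone genes.

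Heme synthesis outside the red cell gave another picture. All 8 genes of the list were tested in each cohort, and none rose. Alas1, the enzyme of other tissues, fell in disease mice of cohort G (160.5 ± 34.4 against 220.7 ± 25.8 CPM, log2 fold change -0.46, adjusted p 0.0457) and in disease treated against WT mice (-0.53, adjusted p 0.0187). It was not called in either comparison of treated with untreated mice of cohort G (-0.33, adjusted p 0.122 in WT, -0.073, adjusted p 0.813 in disease mice), nor was any other gene of the list.

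Of 10 genes that clear hemoglobin and heme, 9 were tested, and the 3 called in WT treated mice are a share near that of all genes (27.7%). In WT treated mice 2 rose, Hmox1 (heme oxygenase 1, 11.0 ± 1.7 against 7.42 ± 1.1 CPM, log2 fold change 0.56, adjusted p 0.0107) and Ftl1 (ferritin light chain, 0.86, adjusted p 0.00546), and Hmox2 fell (-0.28, adjusted p 0.0157). In disease treated against disease mice of cohort G, Hmox1 alone rose (0.63, adjusted p 0.0180), 1 of 9 where 8.26% of all genes were called. In disease against WT mice of cohort G, 1 of 9 was lower (9.81% of all genes). In disease treated against WT mice of cohort G, 2 were higher and 2 lower (15.8% and 13.1% of all genes). In disease mice of cohort F, 2 of 9 were higher than in WT mice, where 1.99% of all genes were. Hp (haptoglobin, which binds free hemoglobin) rose from 0.271 ± 0.10 to 3.54 ± 0.90 CPM (3.43, adjusted p 0.0136). Cd163 (the receptor of that complex on macrophages) rose from 4.10 ± 0.87 to 15.3 ± 8.1 CPM (1.88, adjusted p 0.0495). These genes of clearance were named after their values were seen.

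Among the 10 genes whose pattern over the mice was most like the mean of the 5 were Ube2l6 (r 0.908 over 28 mice, each cohort centred), Slc4a1 (0.906), Isg20 (0.891), Tent5c (0.848), Trim10 (0.786), Mkrn1 (0.767), Cdr2 (0.742) and Gm10371 (0.709), of 14572 genes. With each group centred, r was 0.897 in Slc4a1 and 0.594 in Gm10371. In WT treated against WT mice 7 of the 10 were called higher, where 15.8% of all genes were. Among them were Isg20 (9.04 ± 3.4 against 4.33 ± 2.1 CPM, 1.06, adjusted p 0.0370), Mkrn1 (0.71, adjusted p 0.0114) and Cdr2 (1.34, adjusted p 0.000251).

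In disease treated against disease mice, 2 of the 10 were called higher in cohort G (5.22% of all genes), Cdr2 (0.84, adjusted p 0.0101) and Gm10371 (2.58, adjusted p 0.00581). In cohort F all 10 log2 fold changes of that comparison were below 0, without a call. The 10 were picked by their likeness to the 5 genes in the same mice, so their signs follow in part from that choice.

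Markers of other cells moved with tamoxifen in cohort G, those of bone in both genotypes. The bone list (Ibsp, Mmp13, Bglap, Bglap2, Sp7, Dmp1, Phex, Mepe, Col1a1 and Alpl) summed to 157 to 477 CPM in WT and 4466 to 9748 CPM in WT treated mice, with disease mice at 427 to 582 CPM and disease treated mice at 541 to 7793 CPM. Under tamoxifen 8 of 9 tested genes were higher in each genotype, where 15.8% of all genes were called higher in WT and 5.22% in disease mice. Disease treated mouse 4, with the highest summed globin of its group (1949 CPM), had the lowest bone sum (541 CPM), inside the range of disease mice. Col1a1, at up to 7664 CPM, is the highest gene of this list and weighs most in the sum. Ibsp was at 2.41 CPM in that mouse, above the disease mice (0.633 CPM or less) and below the other disease treated mice (87.0 CPM or more). In cohort F the bone sum of disease treated mouse 2 was 3013 CPM against 91.5 to 494 CPM in the other 3, and this mouse also had the highest globin of its group.

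The list of neutrophil and marrow granulocyte genes summed to 0.587 to 14.9 CPM over all 28 mice. Elane was at 0.0471 CPM or less and Mpo at 0.174 CPM or less, while S100a9 reached 7.74 CPM. WT treated mouse 3 of cohort G, with the highest summed globin (2625 CPM), had 12.8 CPM of this list, against 2.47 to 4.32 CPM in the rest of its group. The highest sum, 14.9 CPM, was in disease treated mouse 4 of cohort F, which had 298 CPM of globin. Macrophage genes summed to 45.0 to 79.8 CPM in WT and 124 to 257 CPM in WT treated mice (5 of 6 higher), and genes of dividing cells to 3.003 to 6.72 and 10.4 to 24.5 CPM (5 of 5 higher). Of all genes, 15.8% were called higher in that comparison. Macrophage genes summed to 62.7 to 192 CPM in disease mice of cohort G, with 2 of 6 higher than in WT mice, where 12.1% of all genes were. In disease treated against disease mice no macrophage gene was called (log2 fold changes -0.15 to 0.75), nor was a gene of dividing cells (0.28 to 0.70). Endothelial genes, which mark vessels, summed to 503 to 968 CPM in WT and 268 to 651 CPM in disease mice of cohort G (6 of 10 lower, against 9.81% of all genes), and to 505 to 568 CPM in WT treated mice. In cohort F macrophage genes summed to 97.2 to 197 CPM in disease (2 of 6 higher than in WT, against 1.99% of all genes), 35.7 to 107 CPM in disease treated and 34.4 to 52.1 CPM in WT mice. Of 4 adipocyte genes tested in cohort F, 2 were higher in disease than in WT mice, where 1.99% of all genes were. These were Plin1 (3.34, adjusted p 0.0267) and Cidec (3.54, adjusted p 0.0147), named after their values were seen. Plin1 was lower in disease treated than in disease mice (-3.32, adjusted p 0.0227), where 1.61% of all genes were. The 4 ranged from -0.025 to 3.54 (median 3.20) and from -3.32 to 0.098 (median -2.35). The sum of the adipocyte list did not follow globin in cohort F, but it largely follows 1 gene. Fabp4 was at 134 to 483 CPM over the 28 mice, with each other gene of the list at 26.9 CPM or less. The sum was 253 ± 12.8 CPM in WT, 260 ± 71.9 CPM in disease and 267 ± 34.5 CPM in disease treated mice (mean ± SD, n = 4). The part of these other cells in the levels of the 5 genes was not tested.

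Among mice of cohort G with Xist alone, summed globin was 530 and 1497 CPM in WT, 802 and 2003 CPM in WT treated, 341 and 442 CPM in disease, and 609 to 1949 CPM in disease treated mice. The order of the group means was then the same for disease, WT and WT treated, at 391, 1014 and 1402 CPM, with disease treated at 1189 CPM in between.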

How the data were processed

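RNA from TA muscle of 28 mice was sequenced as polyA-selected, stranded libraries. The authors deposited 1 table of raw read counts per gene for each cohort, and the submitters' processing notes name bcl2fastq 2.20.0.422, cutadapt 1.10, Bowtie 1.2.2, STAR 2.5.3, HTSeq 0.6.1p1 and mm39, without saying which step made the tables. Lines of cohort F that name no gene (22.0% to 30.8% of its reads) were left out. Gene names came from GENCODE M21, in which 52083 identifiers matched in each table.

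Each cohort was fitted separately in edgeR 4.0.16 (R 4.3.3) with TMM scaling, the default filter on low counts, robust quasi-likelihood tests and Benjamini-Hochberg adjustment over all genes tested, at a threshold of 0.05. Log2 fold changes used a prior count of 2, the SE follows from the F statistic, and 95% CIs use the t distribution with the degrees of freedom of that test. CPM values are TMM-scaled within a cohort. DESeq2 1.42.0 was an alternative, as were other scalings and filters, fits of only the groups compared, a replicate block and leaving out each mouse of a fit in turn. Adjusted p-values set a difference between groups against the spread between these mice. The scripts were tested on simulated data.

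Same-numbered mice of different groups had correlations of -0.325 to 0.335 in 28 pairs, with 10 over 0.1, so the numbers showed no steady pairing of mice. Mice of different numbers were not compared in this way, so a pairing was not excluded. The lowest chi-square per gene between mice of a group was 14.7, so no pair of libraries agreed within sampling noise. The genes named outside the 5 were those called under tamoxifen in the lists of red cell genes (up to 4 per list and comparison, by p), the 10 most similar over the mice, and, elsewhere, genes said to be named after their values were seen. The 5 genes and all gene lists were chosen with earlier results of these data known. Results of 3 genes of these lists are not reported here.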

Additional observations from a re-analysis of the deposited data

How the results depend on the processing

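With 4 mice per group and globin levels that spread several-fold within a group, log2 differences near 1 did not pass. No gene of the 5 was called in the comparisons within cohort F, in disease treated against WT mice of cohort G, or in the interaction, under any alternative run.

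In disease against WT mice of cohort G, the count of 1 (Alas2) became 0 without a filter on low counts (adjusted p 0.148), with only the groups compared (0.0948) and with Xist as a covariate, and was 0 to 1 on leaving out 1 mouse. In WT treated against WT mice the count of 0 became 2 with the replicate block (Hbb-bt 1.16, adjusted p 0.0357, and Alas2 1.22, adjusted p 0.0217) and was 0 to 2 on leaving out 1 mouse. In disease treated against disease mice of cohort G it became 1 (Alas2) with DESeq2 and with the replicate block (1.45, adjusted p 0.0320), and was 0 to 1 on leaving out 1 mouse. The numbers showed no steady pairing of mice, though a pairing was not excluded. WT mice of cohort F share no number with the other groups, so no block was possible in comparisons with them. In disease treated against disease mice of cohort F the block called 0 of the 5 and 152 of all genes against 464. For the difference between cohorts, chosen after seeing the data, the count of 0 became 5 with DESeq2 and 1 with the study's filter (Alas2, adjusted p 0.0466), and was 0 to 5 on leaving out each of the 28 mice in turn.

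Signs turned for values that lay between -0.14 and 0.30 on the log2 scale. The interaction of Hbb-bt was -0.059 with the replicate block. Hbb-bs in disease treated against WT mice of cohort F was 0.0028 with the study's filter and 0.0042 with only the groups compared. On leaving out 1 mouse, disease treated against WT mice of cohort G ranged from -0.039 to 0.58 for Hbb-bs and -0.20 to 0.42 for Alas2. The interaction ranged from -0.28 to 0.50 for Hba-a1, -0.31 to 0.45 for Hba-a2, -0.066 to 0.56 for Hbb-bs and -0.38 to 0.46 for Hbb-bt. Disease treated against WT mice of cohort F ranged from -0.45 to 0.38 for Hba-a1, -0.45 to 0.38 for Hba-a2, -0.54 to 0.30 for Hbb-bs, -0.46 to 0.27 for Hbb-bt and -0.81 to 0.16 for Alas2. The causes were not tested.

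Counts of all genes called moved by over 1.5 times in each comparison. In cohort G, disease against WT gave 3383 (2034 without WT mouse 2 to 4122 with DESeq2), WT treated against WT 4273 (2769 without WT treated mouse 2 to 4917 with DESeq2), disease treated against disease 1276 (30 with only the groups compared to 2562 without disease treated mouse 4), disease treated against WT 4461 (2954 without disease treated mouse 3 to 5496 without mouse 4) and the interaction 40 (1 without WT treated mouse 1 to 322 with DESeq2). In cohort F, disease against WT gave 388 (18 without WT mouse 8 to 1458 with only the groups compared), disease treated against disease 464 (122 with only the groups compared to 1253 without disease treated mouse 2) and disease treated against WT 126 (42 without WT mouse 5 to 521 with DESeq2). The difference between cohorts gave 274 (6 without disease treated mouse 2 of cohort G to 2195 without disease treated mouse 2 of cohort F).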

Other observations

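Platelets, like red cells, have no nucleus, and the sums of their genes are given with no test. In cohort F the platelet list summed to 11.4 to 13.4 CPM in disease mice, 2.83 to 7.80 CPM in disease treated and 3.58 to 5.53 CPM in WT mice. In cohort G the sums were 4.82 to 7.23 CPM in WT, 5.04 to 7.46 CPM in WT treated, 7.36 to 11.0 CPM in disease and 6.25 to 9.16 CPM in disease treated mice. Disease mice of cohort G thus had the highest mean platelet sum of that cohort (9.53 ± 1.58 CPM, mean ± SD, n = 4) and the lowest mean of summed globin. Their platelet sums overlapped those of WT treated and disease treated mice. Disease mice of cohort F had the highest means of both. Pf4, at up to 9.36 CPM, was the highest gene of the list, followed by Itga2b at up to 3.83 CPM, so the sums largely follow few genes.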
